A study of Mus musculus with 29 samples.

Results

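In vehicle-treated 3T3-L1 cells, 25 of the 11959 genes measured by RNA-seq reached a peak at day 2 of differentiation. The genes were chosen by their CPM values (counts scaled to the total of the sample) in vehicle cells. A gene was included when its mean CPM at day 2 was at least 5 and at least 2 times its mean at each of days 0, 1 and 7 in vehicle cells. The vehicle samples therefore chose the genes, and the height of the peak in vehicle is described here with no test. C70 samples had no part in the choice. The question was how the peak changed after C70.

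3T3-L1 is a mouse fibroblast line whose cells become white adipocytes in culture. Confluent preadipocytes received 10 µM KDM5-C70 (C70), an inhibitor of the KDM5 family of histone H3 lysine 4 demethylases, or DMSO vehicle alone from day -2 to day 0, when C70 ended. From day 0 both arms received the same media, for as long as each group was kept: differentiation medium with dexamethasone, insulin, isobutylmethylxanthine and a PPARγ agonist from day 0 to day 2, and adipocyte medium with insulin and dexamethasone afterward. RNA was collected at days 0, 1, 2 and 7, from 3 vehicle samples at each of days 0, 1 and 2, 4 vehicle samples at day 7 and 4 C70 samples at each day. Day 0 samples were thus taken before the hormones, and day 2 was the end of the differentiation medium. All cells were of 1 line, and the labels give no difference in genotype between groups. Gene positions are on GRCm38. Nothing states that replicates were separate cultures, so the P values measure the spread between these samples, which may be technical.

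Sample totals ranged from 16320275 to 24037170 counts, and the 25 genes had 45 to 33973 counts in a day 2 sample. The deposited table holds genes with a CPM above 1 in at least 20 of the 29 samples, so a gene seen at day 2 alone could not appear in it. Replicate 1 of vehicle day 7 stood apart from the other 3 of its group over all genes, with a chi-square per degree of freedom of 39.8 to 46.7 in its 3 pairs and 2.65 to 13.9 in the other 36 pairs of replicates. Without it the 17 lower and 1 higher genes of day 2 and the 1 lower and 4 higher genes of day 7 given below kept these counts. All 8 adipocyte markers examined (Adipoq, Fabp4, Plin1, Cd36, Lpl, Pparg, Cebpa and Cidec) were in the table. Their summed level in vehicle cells was 1343 to 1462 CPM at day 0 and 24537 to 25614 CPM at day 2, and in C70 cells 1493 to 1547 and 14189 to 15815 CPM. Of 8 preadipocyte markers 7 were in the table, with a summed level at day 2 of 3489 to 3621 CPM in vehicle and 5071 to 5628 CPM in C70 cells. At day 7 the adipocyte sums overlapped, at 23688 to 26512 CPM in vehicle and 24794 to 26967 CPM in C70 cells. The preadipocyte sums were then still apart, at 2027 to 2766 and 4638 to 5687 CPM. These marker levels thus differed between the arms at day 2, as did the genes given below, and the adipocyte sum no longer did at day 7. The part of the markers in the C70 effects was not tested. In these bulk samples, fewer cells of a state and less RNA per cell cannot be told apart. Markers of other cell types were mostly not in the table, with none of 5 endothelial, 1 of 6 macrophage, 1 of 5 muscle and 1 of 5 mesothelial or epithelial markers. For those present every C70 sample of day 2 lay above every vehicle sample. The macrophage marker Cd68 was at 1.36 to 1.77 CPM in vehicle and 6.48 to 7.11 CPM in C70 samples, the muscle marker Actn3 at 3.62 to 5.09 and 10.9 to 13.9 CPM, and the mesothelial marker Msln at 2.36 to 2.50 and 15.2 to 20.8 CPM, and their part in the results was not tested.

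As background, confluent 3T3-L1 preadipocytes re-enter the cell cycle after the hormone cocktail is added, divide in a burst called mitotic clonal expansion, and then switch on lipid and adipocyte genes. A transcript that is high only at the end of the cocktail can belong to the cycle, to the response to insulin, glucocorticoid and cAMP, or to an early stage of lipid synthesis. The 25 genes included feedback inhibitors of growth factor signalling (Spry1, Spry4, Dusp4), cell cycle genes (Cdk6, Ncapg2), lipid genes (Fabp5, Gpat3, Tmem120a, Arxes2, Gpcpd1, Tmem86a, Dhcr7, Pdss1), a regulator of glycolysis (Pfkfb3), a mitochondrial chaperonin (Hspd1), and cell surface or secreted proteins (Cxcl13, Olr1, Negr1). Cbr3, Amotl2, Itpripl1 and Gm21887 were the other protein-coding members. Of the 25, 22 were annotated as protein coding. The remaining 3 were the processed pseudogene Gm6166, the unclassified transcript Gm38357 and the noncoding RNA Snhg14.

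RefSeq promoter windows (GRCm38.p6, 250 bases before to 50 after a start site, 300 in all) whose start site lay within 3000 bases of the annotated gene start were found for 17 of the 25 genes, and for 8480 genes of the table. Dusp4, Fabp5, Gm21887, Gm38357, Gm6166, Gpcpd1, Snhg14 and Spry4 were not matched. Of the windows, 4 are shown because their genes mark the range of the response to C70: Spry1 had the strongest called fall at day 2, Ncapg2 fell but still met the rule for the peak in C70 cells, Cbr3 was not called and met it, and Cxcl13 was the one gene that rose. Capitals mark matches to the motifs searched on both strands, other than the CRE core TGACG.
Spry1, chr3:37639697-37639996, plus strand: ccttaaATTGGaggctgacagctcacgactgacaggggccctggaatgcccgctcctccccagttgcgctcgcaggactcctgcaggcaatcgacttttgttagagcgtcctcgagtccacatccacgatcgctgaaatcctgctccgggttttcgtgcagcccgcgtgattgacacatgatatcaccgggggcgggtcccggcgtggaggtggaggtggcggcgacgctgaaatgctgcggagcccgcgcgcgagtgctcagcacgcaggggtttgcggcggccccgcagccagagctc
Ncapg2, chr12:116405186-116405485, plus strand: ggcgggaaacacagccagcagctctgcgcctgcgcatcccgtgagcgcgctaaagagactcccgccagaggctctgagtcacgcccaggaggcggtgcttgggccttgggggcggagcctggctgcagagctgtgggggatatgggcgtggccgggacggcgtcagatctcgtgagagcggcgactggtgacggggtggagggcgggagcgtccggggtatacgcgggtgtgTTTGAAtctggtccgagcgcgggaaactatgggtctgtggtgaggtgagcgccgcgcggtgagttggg
Cbr3, chr16:93682969-93683268, plus strand: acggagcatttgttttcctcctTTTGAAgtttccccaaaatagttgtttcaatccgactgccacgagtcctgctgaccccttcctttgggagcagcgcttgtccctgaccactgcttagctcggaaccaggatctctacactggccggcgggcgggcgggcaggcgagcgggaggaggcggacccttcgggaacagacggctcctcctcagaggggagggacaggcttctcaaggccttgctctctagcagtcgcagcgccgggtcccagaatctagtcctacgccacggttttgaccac
Cxcl13, chr5:95956689-95956988, plus strand: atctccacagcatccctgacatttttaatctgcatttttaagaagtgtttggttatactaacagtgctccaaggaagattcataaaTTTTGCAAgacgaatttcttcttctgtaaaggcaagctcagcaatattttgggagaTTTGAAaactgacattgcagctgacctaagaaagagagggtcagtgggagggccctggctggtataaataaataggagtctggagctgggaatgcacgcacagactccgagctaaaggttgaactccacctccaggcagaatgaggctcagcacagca

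The capitals in the Spry1 window are an inverted CCAAT box at position -244 from the start site. In the Ncapg2 window they are a CHR element (cell cycle genes homology region, TTTGAA) at position -18. The Cbr3 window holds TTTGAA at position -228, and the Cxcl13 window holds it at position -108, with a C/EBP match (TTGCNNAA, on the opposite strand) at position -164. Over the 17 windows, TTTGAA was found in 4 (23.5%), against 11.3% of the 8480 windows, in Ncapg2, Cbr3, Cxcl13 and Itpripl1. The C/EBP motif was in 3 (17.6%, against 7.91%), in Dhcr7, Pdss1 and Cxcl13. CCAAT was in 5 (29.4%, against 39.8%), the E box CACGTG in 2 (11.8%, against 10.6%), and the CRE core TGACG, which is contained in the full site, in 5 (29.4%, against 34.3%). The full CRE (TGACGTCA, 3.44% of the 8480), E2F sites (TTTCGCG or TTTGGCG, 4.59%), the sterol element TCACNCCAC (1.01%), the palindromic glucocorticoid response element (0.283%) and the PPAR direct repeat with a spacer of 1 base (0.0472%) matched in 0 of the 17. These are matches of letters in short windows and no test was made on them.

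In vehicle cells, the peak ratio, which is the mean CPM at day 2 divided by the highest mean of the other 3 days, had a median of 2.25 over the 25 genes and ranged from 2.02 for Amotl2 to 4.07 for Gm38357. The ratios just inside the threshold belonged to Amotl2 (2.02), Hspd1 (2.02) and Negr1 (2.03), and those just outside it to the pseudogene Hspd1-ps3 (2.00, unrounded below the threshold), Asf1b (1.94) and Gmnn (1.93). The next highest day was day 7 for 13 genes, day 1 for 9 and day 0 for 3 (Cdk6, Snhg14 and Itpripl1). Mean CPM was already above day 0 at day 1 for 20 genes, and still above it at day 7 for 19. Every vehicle sample of day 2 lay above every vehicle sample of the other days for 24 of the 25. The exception was Gm21887, whose day 2 vehicle values were 2.05, 2.31 and 14.3 CPM, so that its place among the genes rested on replicate 3 alone. Without that sample Amotl2, Negr1 and Snhg14 were lost as well and Hspd1-ps3 was gained, which gave 22 genes. Other vehicle samples decided membership too. Gpcpd1, Dusp4 and Amotl2 were lost without replicate 1 of day 7, Gm6166 without replicate 3 and Hspd1 without replicate 4 of that day. Negr1 was lost without replicate 2 and Amotl2 without replicate 3 of day 1, and Snhg14 without replicate 2 of day 0. Per kilobase of exon, the day 2 vehicle level was highest for Hspd1 (546 CPM per kb), Gm6166 (349), Tmem120a (270) and Fabp5 (225), and lowest for Snhg14 (0.345).

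**Figure D1:**
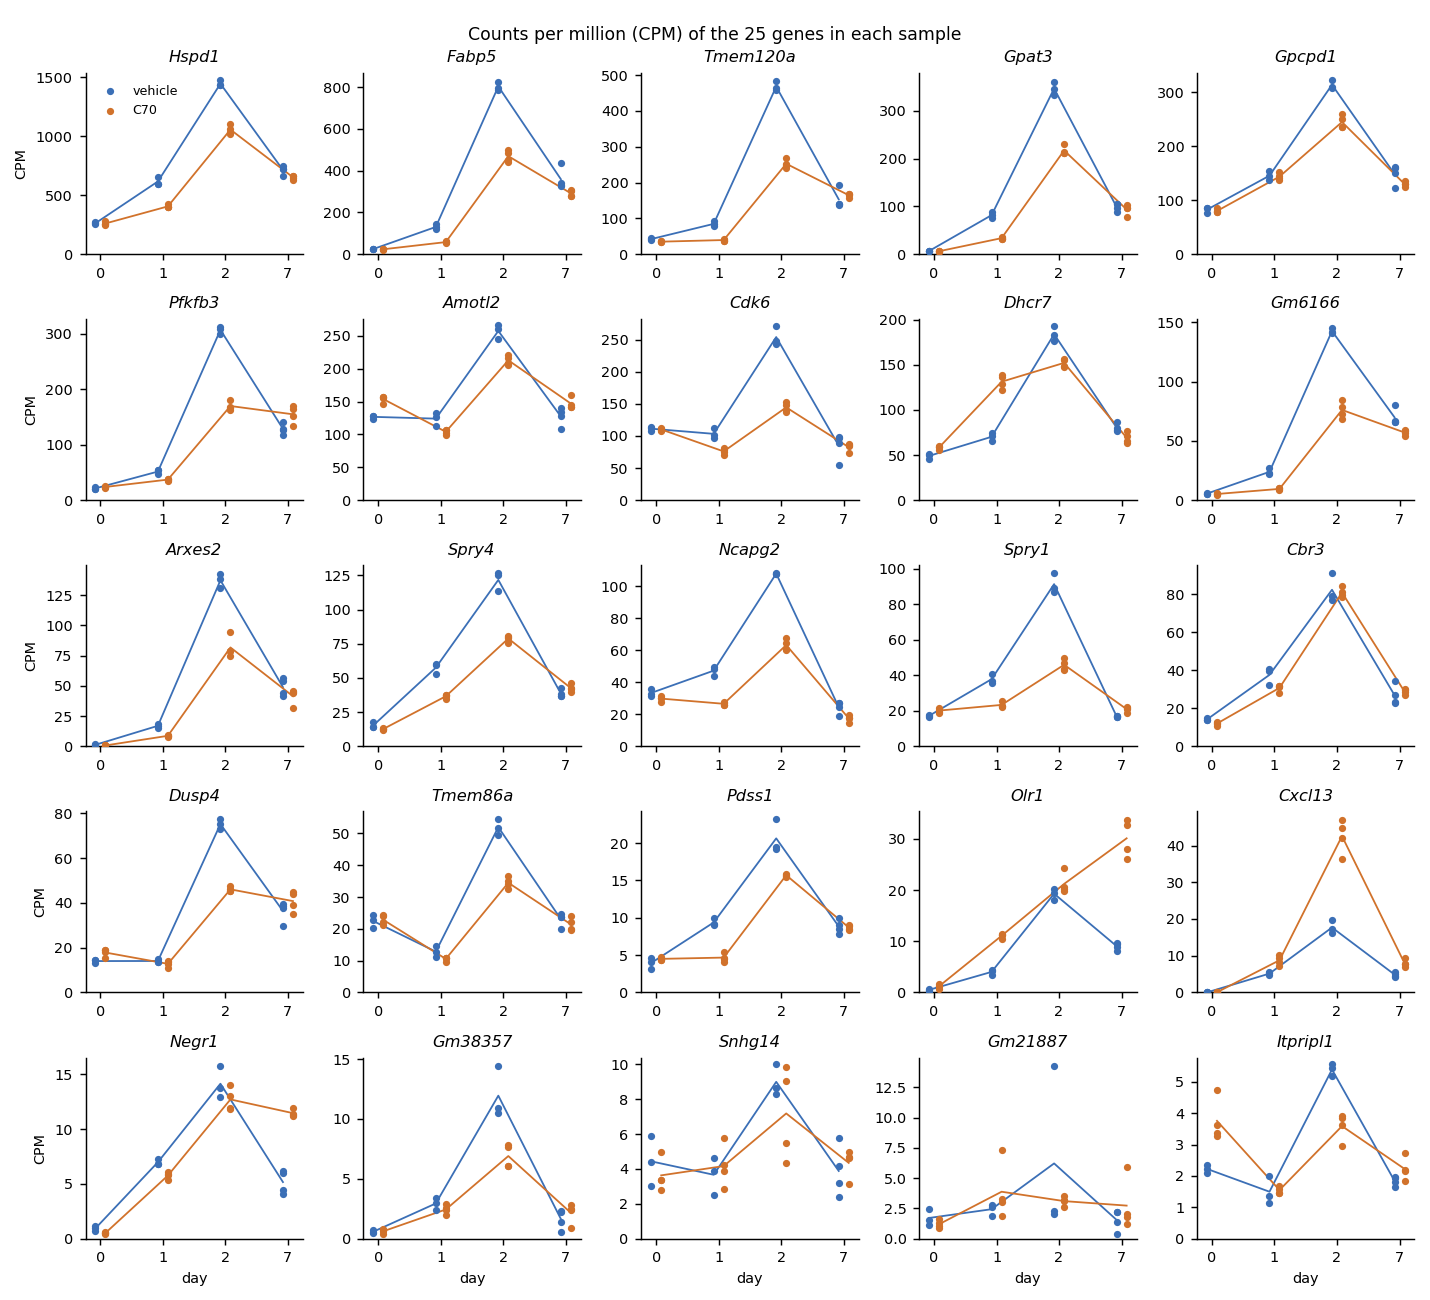
CPM of each of the 25 genes (vertical axis, starting at 0, with its own scale per gene) in every sample at days 0, 1, 2 and 7 (horizontal axis, not to scale in time). Blue points are vehicle samples, orange points are C70 samples, and lines join the group means. The orange mean at day 2 lies below the blue one for 23 genes, and Cxcl13 and Olr1 are the exceptions.

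After C70 the peak was lower for most of these genes and was still present in many. At day 2 the median level in C70 cells was 64.8% of that in vehicle cells, and the median log2 fold change was -0.63, against -0.0036 over all 11959 genes. Calls were made by edgeR's quasi-likelihood test. They needed a Benjamini-Hochberg adjusted P under 0.05 and a fold change in either direction over the limit given with the processing (the fold threshold). By these calls 17 of the 25 genes (68%) were lower in C70 cells at day 2, where 13.6% of all genes were. Only Cxcl13 was higher (4%, with 16.9% of all genes), and 7 did not pass. Every C70 sample lay below every vehicle sample for 19 of the 25, as for 28.9% of all genes. Of the others, 1 gene lay wholly above and 5 overlapped. The share of all genes wholly above was not computed, so nothing is read from that count. The vehicle samples of day 2 that chose the genes are one side of this comparison, so the choice itself favours lower values in C70. When 1 day 2 vehicle sample was kept out of the choice and C70 was compared with that sample alone, taken to vary as the other groups do, the rule chose 27, 25 and 22 genes for samples 1, 2 and 3. Of these, 16, 14 and 16 were called lower and 1 was called higher each time, with medians of -0.58, -0.50 and -0.65. In the same fits 10.9%, 11.1% and 11.7% of all genes were lower and 15.6%, 15.4% and 16.2% higher. The vehicle samples of the other days took part in these choices.

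The day 2 peak itself was tested within C70 cells, whose samples the choice did not use. There 23 of the 25 genes rose from day 1 to day 2 (18.8% of all genes did), 24 were higher at day 2 than at day 0 (31% of all genes), and 19 were higher at day 2 than at day 7 (27.2% of all genes). All these contrasts were called for 17 genes (68%), against 1.65% of all genes. Day 2 was the day of the highest mean in C70 cells for 22 genes, and the exceptions were Olr1 (day 7), Gm21887 (day 1) and Itpripl1 (day 0). The share of all genes highest at day 2 was not computed, so the 22 are a description. The peak ratio in C70 cells had a median of 1.61 and ran from 0.704 for Olr1 to 4.85 for Cxcl13. It was smaller than in vehicle for 23 genes and larger for 2, Cbr3 and Cxcl13, and was 1.5 or more for 15. The vehicle ratio is the value that chose the genes, so a smaller ratio in C70 cells is favoured by the choice. With the vehicle ratio taken from the day 2 sample held out, an alternative added after seeing the data, the C70 ratio was smaller for 25 of 27, 23 of 25 and 20 of 22 genes. The median vehicle ratios were then 2.21, 2.15 and 2.33, and the C70 ones 1.58, 1.61 and 1.61. The vehicle means of days 0, 1 and 7, by which these ratios divide, still took part in the choice. A larger vehicle ratio thus remains favoured. No shares of all genes were computed for the peak ratios, and all these ratio counts are a description. When the rule for the choice was applied to the C70 columns, 12 genes met it, and 5 of these (41.7%) were among the 25 (20%): Gpat3, Cbr3, Ncapg2, Cxcl13 and Gm38357. The other 7, named after their values were seen, were Peg10, Tfrc, Angptl7, Ccne1, Prl2c2, Car2 and Ftl1-ps1, whose peak ratios in vehicle cells ran from 0.681 for Angptl7 to 1.59 for Ccne1.

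**Figure D2:**
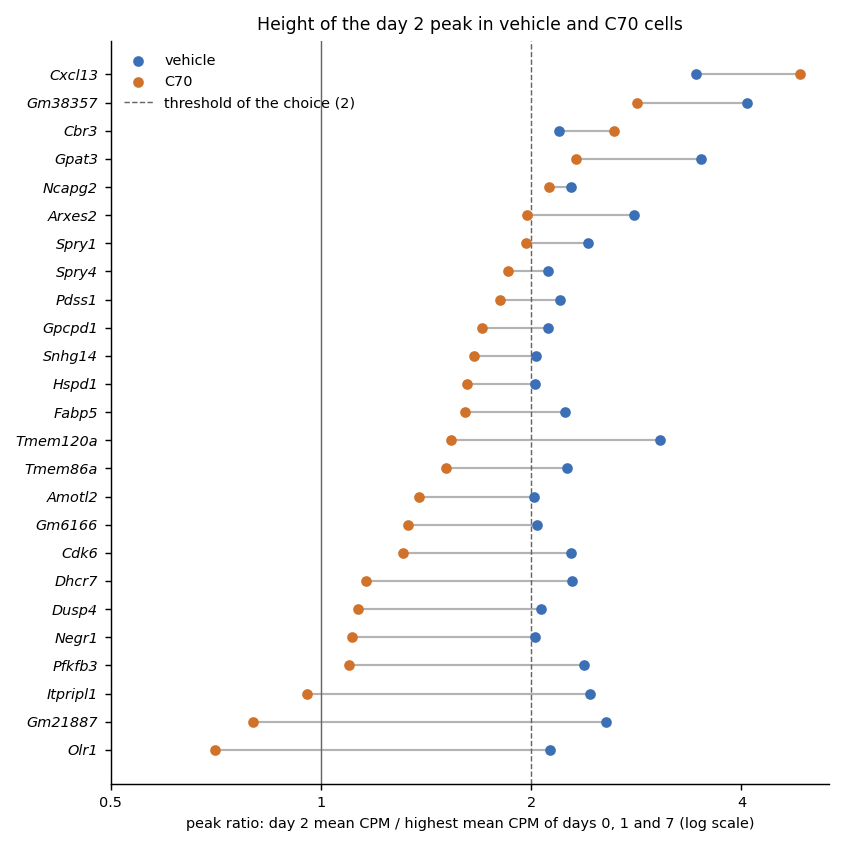
Peak ratio of each gene, the day 2 mean CPM over the highest mean CPM of days 0, 1 and 7 (horizontal axis, log scale), in vehicle (blue) and C70 cells (orange). Vehicle values all lie right of the dashed line at 2 because the line chose the genes, and 5 C70 values do, while Itpripl1, Gm21887 and Olr1 fall below 1 in C70 cells.

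Spry1 and Spry4 encode Sprouty proteins, which restrain ERK signalling downstream of receptor tyrosine kinases, and Dusp4 encodes a nuclear phosphatase that inactivates MAP kinases. Spry1 (ENSMUSG00000037211, chr3:37639947-37644598) was at 89.3, 87.1 and 97.9 CPM in the vehicle samples of day 2 and at 47.2, 49.9, 43.1 and 43.7 CPM in the C70 samples. The groups were far apart, and the C70 samples were just above the vehicle samples of day 1 (35.8 to 40.9 CPM). The log2 fold change of Spry1 at day 2 was -0.99 (SE 0.0596, adjusted P = 1.35e-14 by edgeR), a 1.99-fold lower level. At day 7 the order was turned: vehicle samples were at 16.6 to 17.3 CPM and C70 samples at 18.7 to 22.5 CPM, and Spry1 was 1.29-fold higher after C70 (adjusted P = 5.95e-05).

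Spry4 (chr18:38586247-38601415) was at 125, 113 and 127 CPM in vehicle and at 80.3, 80.9, 79.0 and 75.2 CPM in C70 samples at day 2, a log2 fold change of -0.63 (SE 0.062, adjusted P = 6.76e-10). It was lower at day 1 as well, by 1.51-fold. Dusp4 (chr8:34807297-34819894) was higher after C70 at day 0, with 13.4 to 14.4 CPM in vehicle and 15.2 to 19.1 CPM in C70 samples, and did not pass the test at day 1 (log2 fold change -0.08). At day 2 it was at 77.5, 72.7 and 75.3 CPM in vehicle and 45.1, 46.2, 47.7 and 45.1 CPM in C70 samples (log2 fold change -0.71, adjusted P = 4.93e-09). At day 7 Dusp4 was at 35.2 to 45.0 CPM in C70 cells, and its difference from day 2 to day 7 in C70 cells was not called (log2 difference 0.00). For other feedback genes at day 2, log2 fold changes were -0.05 for Spry2, -0.09 for Spred1, 0.06 for Spred2 and -0.02 for Spred3, none of them called. Dusp6 (0.53) and Dusp5 (0.55) were called higher, and Dusp1 (0.30, adjusted P = 0.00437) missed the fold threshold with every C70 sample above every vehicle sample. In a list of 52 signalling receptors and regulators that holds both Sprouty genes, 8 were lower and 32 higher at day 2, with a median of 0.60.

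Cdk6 encodes a kinase that partners D-type cyclins in G1, and Ncapg2 a subunit of condensin II, which compacts chromosomes for mitosis. Cdk6 (chr5:3341485-3531008) was at 248, 271 and 243 CPM in vehicle and 148, 141, 152 and 137 CPM in C70 samples at day 2. Its log2 fold change was -0.81 (SE 0.0987, adjusted P = 3.86e-08), and the C70 peak stood only 1.31 times above day 0. At day 0 the samples of both groups overlapped at 108 to 114 CPM. Cdk4, the related kinase, was at a log2 fold change of 0.31 at day 2 (adjusted P = 7.21e-05 by edgeR). Every C70 sample lay above every vehicle sample for Cdk4, but its 1.24-fold difference did not reach the fold threshold. Ncapg2 (chr12:116405402-116463731) was at 108, 108 and 108 CPM in vehicle samples and 60.4, 67.7, 64.6 and 60.6 CPM in C70 samples at day 2 (log2 fold change -0.77, SE 0.0732, adjusted P = 2.95e-10). The fall was of the same size at day 1 (-0.77), so its rise from day 1 to day 2 was 2.28-fold in vehicle and 2.38-fold in C70 cells. Ncapg2 was the one member lower at day 7 (log2 fold change -0.43), where vehicle samples ranged from 18.7 to 27.2 CPM and overlapped the C70 samples at 14.6 to 19.8 CPM. In the list of 93 mitosis genes, which holds none of the 25, 85 were lower and 1 higher at day 2 with a median of -0.77. In the list of cell cycle inhibitors and p53 targets, which holds Cdk6, 8 of 35 were lower and 13 higher.

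Fabp5 encodes a fatty acid binding protein, Gpat3 the acyltransferase of the first step of triglyceride synthesis, Tmem120a a membrane protein of the nuclear envelope needed for adipocyte differentiation, and Arxes2 is an X-linked gene named for its expression in adipocytes. Fabp5 (chr3:10012548-10016607) rose in vehicle cells from 24.95 ± 1.95 CPM (SD, n = 3) at day 0 to 797, 787 and 827 CPM at day 2. In C70 cells it reached 440, 501, 487 and 451 CPM, which all lay below the vehicle samples (log2 fold change -0.78, SE 0.0808, adjusted P = 2e-09). The pseudogene Gm6166 on chr9:57483963-57484371 was at 141, 142 and 145 CPM in vehicle and 72.6, 84.3, 78.8 and 68.9 CPM in C70 samples at day 2 (log2 fold change -0.91). Its 409-base transcript is 98.3% identical to Fabp5, so reads of either gene could have been counted for the other, and the pair cannot be told apart with certainty.

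Gpat3 (chr5:100845713-100899102) was at 345, 333 and 361 CPM in vehicle and 212, 231, 212 and 213 CPM in C70 samples at day 2 (log2 fold change -0.68, SE 0.068). Tmem120a (chr5:135735485-135744448) was at 463, 457 and 483 CPM and at 242, 267, 250 and 251 CPM (log2 fold change -0.89, SE 0.0803). Arxes2 (chrX:135993824-135995355) was at 139, 131 and 143 CPM and at 79.2, 94.4, 78.9 and 74.6 CPM (log2 fold change -0.75, SE 0.0995). In each of the 3 the groups were apart at day 2, with adjusted P of 9.88e-10, 1.05e-10 and 2.03e-07. At day 7 none was called, and the samples of both groups overlapped. Arxes2 shares 99.2% of a 727-base stretch with its neighbour copy Arxes1, which is not in the deposited table. Reads of that stretch could come from either. The log2 fold changes at day 1 were -1.11 for Fabp5, -1.22 for Gpat3 and -1.26 for Gm6166. The effect at day 2 minus that at day 1 was called for Fabp5 (0.34, adjusted P = 0.0441), Gpat3 (0.55, adjusted P = 0.000229) and Gm6166 (0.355, adjusted P = 0.0356). By edgeR, Gpat3 kept this call without any one of the 29 samples, while Fabp5 lost it in 12 and Gm6166 in 7 of these 29 settings, with adjusted P of up to 0.177 and 0.17 without vehicle replicate 2 of day 1. By limma-trend neither was called (adjusted P = 0.0537 and 0.0521). Of 27 genes of triglyceride synthesis and lipid droplets, Gpat3 among them, 13 were lower and 2 higher at day 2 with a median of -0.32. Of 22 adipocyte markers, Fabp5 among them, 13 were lower and 3 higher with a median of -0.41.

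Gpcpd1, which cleaves glycerophosphocholine, was at 309 to 323 CPM in vehicle and 235 to 259 CPM in C70 samples at day 2 (log2 fold change -0.36). Tmem86a, a lysoplasmalogenase, was at 49.5 to 54.6 and 32.4 to 36.5 CPM (-0.59). Pdss1, a subunit of the enzyme that makes the side chain of coenzyme Q, was at 19.2, 19.5 and 23.2 CPM in vehicle and 15.5 to 15.9 CPM in C70 samples (-0.39, adjusted P = 0.000248), and without replicate 3 of the day 2 vehicle samples this was -0.30 and no longer passed. Dhcr7, the enzyme of the last step of one route to cholesterol, was the one lipid gene called higher at day 1. At day 1 Dhcr7 (chr7:143823145-143848410) was at 74.7, 70.7 and 65.5 CPM in vehicle and at 122, 136, 138 and 129 CPM in C70 samples. This was a 1.94-fold higher level after C70 (adjusted P = 2.25e-13 by edgeR). At day 2 the order was the other way, with 193, 183 and 176 CPM in vehicle and 148, 157, 155 and 149 CPM in C70 samples, a 1.21-fold difference that did not reach the fold threshold (log2 fold change -0.28, adjusted P = 0.000255). The day 1 to day 2 rise of Dhcr7 was thus 2.62-fold in vehicle and 1.16-fold in C70 cells, a difference of -1.23 on the log2 scale. The rule required a vehicle rise of at least 2-fold, so this difference is favoured by the choice and is a description. In the list of 26 cholesterol genes that holds Dhcr7, 13 were lower and 2 higher at day 1, and 22 were lower at day 2, with medians of -0.35 and -0.95.

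Pfkfb3 makes the sugar phosphate that activates phosphofructokinase, and Hspd1 is the chaperonin that folds imported mitochondrial proteins. Pfkfb3 (chr2:11471433-11554077) was at 312, 301 and 310 CPM in vehicle and 163, 181, 169 and 167 CPM in C70 samples at day 2, a log2 fold change of -0.86 (SE 0.0626, adjusted P = 1.1e-12). At day 7 the C70 samples were at 134 to 170 CPM and the vehicle samples at 117 to 142 CPM, and the difference from day 2 to day 7 within C70 cells was not called (log2 difference -0.04). The peak ratio of Pfkfb3 was 2.38 in vehicle and 1.10 in C70 cells. Of 34 genes of glycolysis and the pentose phosphate route, 18 were lower and 6 higher at day 2 with a median of -0.36. Hspd1 (chr1:55077835-55088243), the gene with the most counts of the 25, was at 1430, 1429 and 1471 CPM in vehicle and 1021, 1105, 1059 and 1036 CPM in C70 samples. It fell 1.37-fold (log2 fold change -0.45, SE 0.0481, adjusted P = 2.85e-09), or -0.29 after quantile normalization, which took it below the fold threshold. The pseudogene Hspd1-ps3, just outside the rule, is 98.95% identical to Hspd1 and gave -0.47. Hspe1, the partner chaperonin on the opposite strand, gave -0.29 and missed the fold threshold. Of 105 genes of the mitochondrial ribosome, import and carriers, 32 were lower and 2 higher at day 2.

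Cbr3, Cxcl13, Olr1 and Negr1 were not called lower at day 2. Cbr3 is a carbonyl reductase that reduces ketones and quinones. At day 2 Cbr3 (chr16:93683215-93690990) was at 79.2, 76.8 and 91.2 CPM in vehicle and 81.4, 79.4, 84.4 and 78.6 CPM in C70 samples, and the groups overlapped. The log2 fold change was -0.03 with a 95% confidence interval from -0.21 to 0.15, so a difference within these bounds is not excluded. Its peak ratio was 2.19 in vehicle and 2.63 in C70 cells. In the detoxification list that holds Cbr3, 3 of 63 genes were lower and 25 higher at day 2.

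Cxcl13, a chemokine that attracts B cells, was the one gene called higher at day 2. At day 0 Cxcl13 (chr5:95956951-95961068) had 1, 0 and 0 counts in the vehicle samples and 0, 0, 3 and 2 counts in the C70 samples, too few for a comparison at that depth. At day 1 it was at 4.66 to 5.54 CPM in vehicle and 7.24 to 10.3 CPM in C70 samples. At day 2 it was at 16.2, 17.2 and 19.6 CPM in vehicle and 42.0, 46.9, 44.9 and 36.4 CPM in C70 samples. The day 2 groups were apart by 2.41-fold (log2 fold change 1.27, SE 0.104, adjusted P = 1.53e-11). The gene returned to 4.29 to 5.63 CPM in vehicle and 6.98 to 9.40 CPM in C70 cells at day 7, still 1.70-fold higher. In the list of 31 complement, acute phase and chemokine genes that holds Cxcl13, 1 was lower and 22 were higher at day 2, with a median of 0.86.

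Olr1, a receptor for oxidized low density lipoprotein, and Negr1, a cell adhesion protein of the immunoglobulin superfamily, overlapped the vehicle samples at day 2 and were higher than vehicle at day 7. Olr1 (chr6:129485244-129507165) was at 20.3, 18.1 and 19.5 CPM in vehicle and 19.8, 24.2, 20.6 and 20.1 CPM in C70 samples at day 2 (log2 fold change 0.13, 95% confidence interval -0.06 to 0.33). At day 1 it was higher after C70, with 3.50 to 4.34 CPM in vehicle and 10.4 to 11.4 CPM in C70 samples. At day 7 it was at 8.09 to 9.72 CPM in vehicle and 26.1 to 33.7 CPM in C70 samples, 3.45-fold higher (adjusted P = 4.93e-15), so that C70 cells had no day 2 peak of Olr1 but a further rise, called within C70 cells (log2 difference of day 2 from day 7 -0.68, adjusted P = 4.95e-08). Negr1 (chr3:156561794-157316445) was at 13.73, 12.96 and 15.78 CPM in vehicle and 13.02, 14.03, 11.95 and 11.89 CPM in C70 samples at day 2. At day 7 it was at 4.07 to 6.16 CPM in vehicle and 11.21 to 11.97 CPM in C70 samples, 2.30-fold higher (adjusted P = 7.4e-11). Within C70 cells the difference of day 2 from day 7 was -0.02 on the log2 scale and was not called.

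Of the remaining 5 genes, Itpripl1 and Gm38357 were called lower at day 2. Itpripl1 was at 5.18 to 5.56 CPM in vehicle and 2.94 to 3.92 CPM in C70 samples at day 2 (log2 fold change -0.59). At day 0 it was higher after C70 (2.11 to 2.35 CPM against 3.29 to 4.75 CPM, log2 fold change 0.78), so that day 2 was no peak in C70 cells. Gm38357 (chr3:51231917-51234380) lies within Noct on the same strand, so its reads cannot be told from those of Noct pre-mRNA. It was at 10.5, 14.4 and 10.9 CPM and at 6.05, 6.06, 7.66 and 7.82 CPM (log2 fold change -0.80, SE 0.195). Amotl2, a junction scaffold protein that binds YAP, was at 246 to 267 CPM in vehicle and 205 to 221 CPM in C70 samples. The groups did not overlap, but the 1.21-fold difference missed the fold threshold (adjusted P = 0.000158). Snhg14, a long noncoding host of small nucleolar RNAs that overlaps other annotated transcripts, was at 8.32 to 10.0 CPM and 4.35 to 9.87 CPM, with overlap (log2 fold change -0.32, 95% confidence interval -0.80 to 0.16). Gm21887 was at 2.60 to 3.49 CPM in C70 samples, and its log2 fold change of -0.95 (SE 0.508, adjusted P = 0.121) became 0.50 without replicate 3 of the vehicle samples.

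The C70 effect on these genes was also compared at the other days. At day 0, at the end of the C70 treatment, 1 gene was lower (Negr1, log2 fold change -0.82) and 3 were higher (Dusp4, Itpripl1 and Olr1), against 3.09% lower and 5.89% higher among all genes, and the median was 0.02. The Negr1 call at day 0 rests on values of 0.72 to 1.14 CPM in vehicle and 0.40 to 0.62 CPM in C70 samples, and was lost without any one of C70 replicates 1, 2 or 3 or vehicle replicates 1 or 2. At day 1, 12 genes were lower (48%, against 7.8% of all genes) and 3 higher (Dhcr7, Olr1 and Cxcl13, against 13.6% of all genes), with a median of -0.23. All 12 genes lower at day 1 were lower at day 2 as well (48% of the 25), where 4.86% of all genes were lower on both days, or 62.3% of the 933 genes lower at day 1. At day 7, 1 gene was lower (4.85% of all genes) and 4 were higher (14.3% of all genes): Olr1 (3.45-fold), Negr1 (2.30-fold), Cxcl13 (1.70-fold) and Spry1 (1.29-fold), with a median log2 fold change of 0.16. The vehicle samples of days 0, 1 and 7 also took part in the choice.

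**Figure D3:**
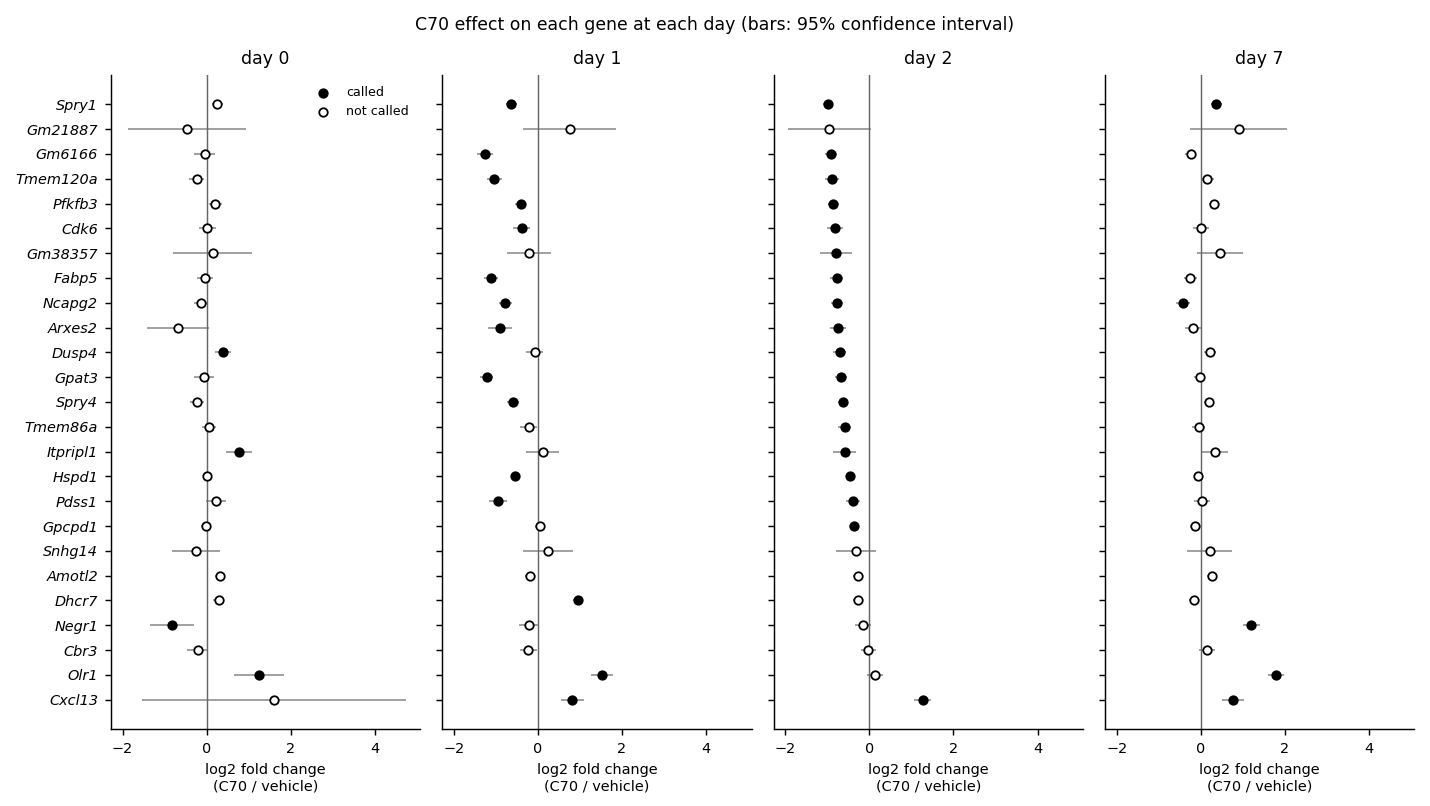
Log2 fold change of C70 over vehicle for each gene (rows, in the order of day 2) at days 0, 1, 2 and 7, from edgeR. The 95% confidence intervals are a normal approximation and can exclude 0 where edgeR's unadjusted P is just above 0.05. Filled points passed adjusted P under 0.05 and the fold threshold, and 17 of them lie left of 0 at day 2 but 1 at day 7.

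The difference of the C70 effect between days was tested by interaction contrasts, which contain the differences between vehicle days that the rule required to be at least 2-fold, so that a lower effect at day 2 is favoured by the choice. Against day 0, the effect at day 2 was lower for 18 of the 25 genes (11.7% of all genes) and higher for 0 (14.9% of all genes), with 1, Negr1, higher by edgeR's unadjusted P. Against day 7, it was lower for 19 (11.9% of all genes) and higher for 1, Cxcl13 (9.04% of all genes). Without replicate 1 of the day 7 vehicle samples the 19 became 20. Cdk6, for which that sample was low (54.5 CPM against 89.8 to 98.5 CPM), was already among the 19. With day 2 vehicle samples 1, 2 and 3 held out of the choice and used alone, the effect was lower than at day 0 for 17 of 27, 16 of 25 and 17 of 22 genes (8.7%, 8.86% and 9.22% of all genes in these fits). It was lower than at day 7 for 16, 16 and 15 (8.5%, 9.52% and 9% of all genes). The vehicle samples of days 0 and 7 remained in the choice. Against day 1, the effect at day 2 was lower for 9 genes (6.49% of all genes) and higher for 4 (7.36% of all genes). Leaving out each sample in turn gave 5 to 9 lower and 2 to 5 higher, and total-count scaling gave 5 lower (4.86% of all genes). Of the higher ones, Fabp5 and Gm6166 lost the call in 12 and 7 of these 29 omissions, and by limma-trend. The 9 with a smaller rise from day 1 to day 2 after C70 were Gpcpd1, Pfkfb3, Cdk6, Dhcr7, Spry1, Dusp4, Tmem86a, Olr1 and Itpripl1, and the 4 with a larger one were Fabp5, Gpat3, Gm6166 and Pdss1. With a day 2 vehicle sample held out of the choice and used alone, these counts were 5 and 2 for samples 1 and 2, and 6 and 1 for sample 3, where 3.83%, 4.66% and 4.39% of all genes had a lower effect and 4.81%, 5.95% and 5.79% a higher one. For the other 12, among them Ncapg2, Spry4, Tmem120a and Hspd1, the rise was not shown to differ.

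A lower level at day 2 was not particular to the genes with a peak. Of 465 other genes with a day 2 vehicle mean of at least 5 CPM that was at least 2 times the day 1 mean, 80.2% were called lower and 3.87% higher after C70 at day 2, with a median of -0.57. By contrast, of 60 genes that peaked at day 1 in vehicle by the same rule, 90% were called higher at day 2, with a median of 0.75. All these sets share the vehicle samples with the comparison. The choice favours lower values after C70 for the 465 genes and higher values for the 60. With a day 2 vehicle sample held out of the choice and used alone, an alternative added after seeing the data, 73.6%, 76.3% and 72.7% of 474, 452 and 462 such rising genes were called lower for samples 1, 2 and 3. Of 59, 61 and 59 genes with a day 1 peak, 86.4%, 90.2% and 86.4% were called higher. No test between sets was made.

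**Figure D4:**
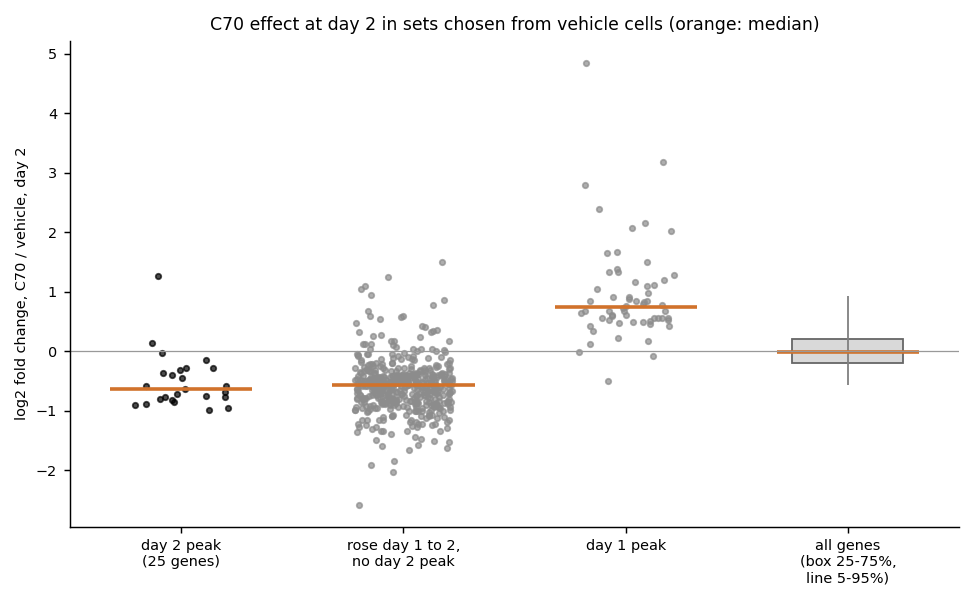
Log2 fold change of C70 over vehicle at day 2 (vertical axis) for the 25 genes, the 465 genes that rose from day 1 to day 2 without a day 2 peak and the 60 genes with a day 1 peak (1 point per gene), and for all 11959 genes as percentiles. Orange lines are medians: -0.63, -0.57, 0.75 and -0.0036.

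For the inhibited family, log2 fold changes at day 2 were 0.12 for Kdm5a, 0.07 for Kdm5b and -0.10 for Kdm5c, none of them called. C70 acts on the proteins, so these levels do not check the treatment.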

How the data were processed

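RNA-seq counts were analysed for 29 samples of 3T3-L1 cells in 8 groups. Reads from strand-specific libraries were aligned by the authors, whose processing notes name STAR 2.7.2a, edgeR 3.26.8 and GRCm38. They deposited gene counts for 11959 genes. Although the table's name speaks of normalization, it holds whole numbers with unequal column totals, and these were used as counts. The counting program, its use of strand and the filter on low genes are not given in the sources used here, and shared or overlapping transcripts could therefore trade reads. Total counts were 16320275 to 24037170, so the most shallow samples set the precision of genes near 5 CPM.

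CPM used column totals. All samples were fitted in edgeR 4.0.16 (R 4.3.3) with trimmed mean of M values factors (0.898 to 1.08) in 1 quasi-likelihood model of group means, tested two-sided with Benjamini-Hochberg adjustment over all genes within each contrast. Calls needed an adjusted P under 0.05 and a fold change over 1.25. Scripts were tested on simulated data. Replicates differed by more than counting noise (chi-square per degree of freedom at least 2.65 over 39 pairs, with the highest values in the pairs of vehicle day 7 replicate 1). Alternatives were DESeq2 1.42.0, limma 3.58.1, other scalings, thresholds and filters, a replicate block, omission of each sample, and day 2 vehicle samples held out of the choice. The interactions of day 2 with days 0 and 7 were added after seeing the data, as were the alternatives for the rule in C70 columns. The genes, lists, motifs and rules were chosen with earlier results of these data known. All 25 genes are named (the rule for naming set a part of them, by level, fold and list), with the 3 nearest below the threshold and Kdm5a, Kdm5b and Kdm5c. Spry2, Spred1, Spred2, Spred3, Dusp1, Dusp5, Dusp6, Cdk4 and Hspe1 were added as relatives or partners of members. Symbols and coordinates came from GENCODE M21 (GRCm38), promoters from RefSeq (GRCm38.p6), and identities from local alignment of transcripts. Tables and plots used Python 3.11.15, pandas 2.3.3 and matplotlib 3.10.9.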

Additional observations from a re-analysis of the deposited data

Results flagged for a closer look

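Single samples stood apart from the other 3 of their group, by the gap to the nearest sample relative to the group's range (Dixon's criterion), in 11 of 125 groups of 4, where chance gives about 1 in 20, or 6.25. Replicate 1 of vehicle day 7 was high for Fabp5 (438 CPM), Tmem120a (192 CPM) and Gm6166 (80.7 CPM). The other 8 were Tmem120a (156 CPM) and Arxes2 (31.5 CPM) in replicate 4 of C70 day 7, Amotl2 in replicate 3 of C70 day 7 (160.2 CPM) and of C70 day 0 (146 CPM), Gpat3 in replicate 2 of C70 day 2 (231 CPM), Dhcr7 in replicate 4 of C70 day 0 (56.2 CPM), Cbr3 in replicate 2 of C70 day 1 (27.96 CPM) and Tmem86a in replicate 1 of C70 day 1 (9.52 CPM).

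The C70 effect differed between days in 51 interaction contrasts. The values are the log2 effect at day 2 minus that at the other day. Against day 0 they were Hspd1 (-0.47), Fabp5 (-0.74), Tmem120a (-0.65), Gpat3 (-0.61), Gpcpd1 (-0.34), Pfkfb3 (-1.05), Amotl2 (-0.59), Cdk6 (-0.83), Dhcr7 (-0.56), Gm6166 (-0.86), Spry4 (-0.39), Ncapg2 (-0.64), Spry1 (-1.25), Dusp4 (-1.09), Tmem86a (-0.64), Pdss1 (-0.62), Olr1 (-1.11) and Itpripl1 (-1.37). Against day 1 they were Fabp5 (0.34), Gpat3 (0.55), Gpcpd1 (-0.40), Pfkfb3 (-0.44), Cdk6 (-0.43), Dhcr7 (-1.23), Gm6166 (0.355), Spry1 (-0.35), Dusp4 (-0.63), Tmem86a (-0.37), Pdss1 (0.56), Olr1 (-1.38) and Itpripl1 (-0.70). Against day 7 they were Hspd1 (-0.38), Fabp5 (-0.53), Tmem120a (-1.05), Gpat3 (-0.65), Pfkfb3 (-1.18), Amotl2 (-0.54), Cdk6 (-0.83), Gm6166 (-0.67), Arxes2 (-0.56), Spry4 (-0.82), Ncapg2 (-0.34), Spry1 (-1.36), Dusp4 (-0.93), Tmem86a (-0.54), Pdss1 (-0.42), Olr1 (-1.65), Cxcl13 (0.50), Negr1 (-1.35), Gm38357 (-1.25) and Itpripl1 (-0.92). The rule required a difference between vehicle days that is part of each value, so negative values are favoured by the choice and nothing is read from their signs.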

How the results depend on the processing

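The 17 lower and 1 higher genes of day 2 became 16 to 18 and 1 without each sample in turn, and 17 and 1 with a replicate block. The block changed no count by over 1.5 times (falling from day 2 to day 7 in C70 cells, 19 became 18). The numbers do not pair the samples, since correlations of same-numbered deviations ran from -0.317 to 0.321 over 13 pairs. A fold threshold of 1.5 or 3 in the choice gave 108 or 4 genes. With 1.5 in the C70 columns 15 of the 25 met it, a count with no share of all genes computed. On the adjusted P alone, 2 genes were lower and 6 higher at day 0, and 4 lower and 8 higher at day 7 (8.91% lower and 10.9% higher of all genes at day 0, and 18.8% and 22.3% at day 7). With a fold change over 1.5, 12 genes fell from day 2 to day 7 in C70 cells (15.9% of all genes), 12 had a lower effect at day 2 than at day 7 (5.17%), 4 had a smaller (2.8%) and 0 a larger rise (2.53%) from day 1 to day 2, and 0 were lower at day 7 (0.87%). DESeq2, limma-trend and quantile normalization each gave 2 lower at day 0 (3.19%, 2.87% and 3.39% of all genes). A larger rise was called for 2 genes by limma-trend (6.61% of all genes), and a smaller rise for 5 with total-count scaling (4.86%). With day 2 vehicle sample 1 or 2 held out, 5 genes had a smaller and 2 a larger rise and the medians were -0.58 and -0.50. With sample 3 held out, 1 had a larger rise and 0 were lower at day 0.

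Without each sample in turn, the number chosen was 22 to 27, lower at day 0 were 0 to 1, smaller rises 5 to 9 (5 without vehicle replicate 2 of day 1), larger rises 2 to 5, and the median at day 2 -0.64 to -0.57 (-0.57 without vehicle replicate 3 of day 2). The larger rises were 2 without C70 replicate 1 or 4 or vehicle replicate 2 of day 1, or without C70 replicate 2 or 3 or vehicle replicate 1 or 2 of day 2. Without vehicle replicate 3 of day 2, Cbr3 (0.049, lowest -0.079 without another sample) and Gm21887 (0.50) turned direction, neither called, and Gm21887 was called lower without replicate 1 or 2 (-1.37 and -1.36). Of 946 values of single genes under the alternatives, 935 kept direction and side of the threshold, 5 lost and 4 gained the call, and 2 turned. The cause was not tested. Depth limits the genes near 5 CPM, whose day 2 counts start at 45.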
